A study of Mus musculus with 3 samples.

Results

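The 10 genes described here encode the transcription factors of the Fos family (Fos, Fosb, Fosl1, Fosl2), the Jun family (Jun, Junb, Jund) and the Egr family (Egr1, Egr2, Egr3). They were chosen by symbol in the platform's annotation, and they are 10 of 19938 genes named on the array. Their values came from regrowing skin on the backs of 6-week-old mice of the inbred strain C57Bl/6, each with an excision of 1.5 cm2 through the whole depth of the skin. The wounds were sampled at 3 times (day 10, day 12 and day 14), and each time is represented by 1 one-colour array on which the pooled RNA of 3 mice was measured. Unwounded skin was not among the samples. All values are log2 expression values. Each gene had 1 value per day, so there was no replicate error, no test was possible and no p-value is given. Every difference compares single pools of tissue, in which fewer cells of a type and less RNA per cell cannot be told apart.

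Immediate early genes are transcribed within minutes of a stimulus, without new protein being made first, and their messages are short lived. Growth factors, stress and injury act on them through MAP kinases and through serum response factor and its partners at their promoters. Fos and Jun proteins pair through leucine zippers to form AP-1, which in skin acts on genes of keratinocyte differentiation, matrix proteases and inflammatory mediators. Egr proteins bind GC-rich DNA through zinc fingers and act on growth factor and matrix genes, and their activity is held back by the Nab co-repressors.

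Promoter sequences are shown for the members that differed most between days and had a RefSeq entry, because promoters carry elements through which immediate early genes are known to respond. A window of 250 bases before and 50 after the start (build GRCm38.p6) was present for 7 of the 10 genes. Fosl1, Egr1 and Egr3 had no entry. The 200 bases before the start are printed 5′ to 3′ in the direction of the gene, and capitals mark the matches named in the next paragraph.
Fos, chr12:85473690-85473889, plus strand: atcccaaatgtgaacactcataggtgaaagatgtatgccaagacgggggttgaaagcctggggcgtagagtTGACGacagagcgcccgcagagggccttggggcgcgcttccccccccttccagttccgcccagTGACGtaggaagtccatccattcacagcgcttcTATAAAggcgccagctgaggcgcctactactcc
Egr2, chr10:67537669-67537868, plus strand: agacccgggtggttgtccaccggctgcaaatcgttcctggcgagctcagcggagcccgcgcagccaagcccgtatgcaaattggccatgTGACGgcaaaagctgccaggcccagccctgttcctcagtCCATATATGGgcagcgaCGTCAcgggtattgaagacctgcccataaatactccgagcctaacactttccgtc
Jun, chr4:95052223-95052422, minus strand: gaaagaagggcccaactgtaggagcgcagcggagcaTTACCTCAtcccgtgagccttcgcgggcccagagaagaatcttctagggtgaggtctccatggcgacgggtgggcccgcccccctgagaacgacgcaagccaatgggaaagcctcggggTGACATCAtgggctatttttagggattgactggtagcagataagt
Fosb, chr7:19310046-19310245, minus strand: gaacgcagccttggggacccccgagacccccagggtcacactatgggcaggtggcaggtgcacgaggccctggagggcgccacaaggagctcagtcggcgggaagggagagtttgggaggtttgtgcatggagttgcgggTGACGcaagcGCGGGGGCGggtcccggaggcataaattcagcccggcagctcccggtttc

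Matches were searched on both strands in the whole windows, no match overlapped one of another motif, and a match describes letters only. A gene counted when any of its windows matched, and Egr2 had 5 windows, whereas the shares of all windows count single windows. The core of the cAMP response element, TGACG, occurred in 4 of the 7 genes (Fos, Fosb, Junb and Egr2), beside 20.8% of 32851 windows. In Fos the core lay at −129 and at −66 from the start. The TATA box TATAAA, a motif in 13.6% of windows, matched 2 of the 7 genes. In Fos it lay downstream of the cores at −33, and in Junb its letters lay at 1 to 6, beginning at the start itself. The CArG box, which serum response factor binds, was found for Egr2, in 4 of the windows of its 5 annotated starts, and 1.63% of all windows held one. In windows 3 to 5 it kept its distance to the response element cores, so 4 windows are not 4 separate boxes. Bases more than 250 before a start were not searched, and Egr1 had no window, so no other member is shown to lack the box. The window printed for Egr2 was the first of those with its most common CArG sequence, so that choice fixed the presence of the box. There the box lay at −72, between response element cores at −111 and, on the other strand, at −55. The Jun window held both sites for which the Jun promoter is known, TTACCTCA at −164 and TGACATCA at −45, in 0.889% and 3.62% of windows. Both were searched as sites of this promoter, so their presence there is no finding. An Egr site, GCGGGGGCG, lay at −50 in Fosb and at −79 in Fosl2, against 2.91% of windows. The other Egr site, GCGTGGGCG, and the AP-1 site, TGACTCA, matched none of the 7 genes and occurred in 0.612% and 5.20% of windows. The Jund window held none of these motifs.

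The arrays were alike in their overall distribution, with medians over 35556 probe sets between 7.53 and 7.55 and Pearson's r between arrays from 0.991 to 0.996. These correlations run across probe sets, and probe sets are no independent replicates. The pools differed in one respect that the labels do not describe. The Y-linked gene Eif2s3y stood at 5.49 on day 10, 9.59 on day 12 and 8.38 on day 14, and the X-inactivation transcript Xist stood at 12.3, 12.0 and 12.3 on those days. Both were looked up after their values were seen, and the part of the animals' sex in any difference was not tested. Among the 9969 genes whose highest value reached the median of that quantity, 8.36, 35.6% had exactly equal values on at least 2 arrays, so an equal value is no precise measure of no difference. All 10 members lay above that level on every day, the lowest value being 8.53. Genes of the same array with several probe sets gave a scale for technical spread. The deviation of a probe set from the mean of its pair had, in 627 genes, a 95th percentile of 0.17 for the first interval (day 12 against day 10), 0.14 for the second (day 14 against day 12) and 0.20 for the whole span (day 14 against day 10). Each member had 1 probe set, so none had such a check of its own. A pair's mean includes the probe set itself, so this scale is narrower than the spread of a single probe set. Members that exceed it narrowly are therefore not shown to differ by more than technical spread.

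Among the Fos genes, Fos itself was higher on day 12 than on either other day, and the other members of the family followed different courses. Fos, the family's prototype and one of the fastest genes to respond to serum, stood at 8.64 on day 10, 9.51 on day 12 and 8.53 on day 14. It was thus 1.82-fold higher on day 12 than on day 10, day 14 lay 1.97-fold below day 12, and the day 14 value lay 0.11 below that of day 10. Fosb, whose protein accumulates under repeated stimulation in neurons, had 8.69 on day 10, 8.89 on day 12 and 9.001 on day 14. Its values were ordered by day, and day 14 exceeded day 10 by 0.31. Fosl1 encodes Fra-1, which is known for its part in the migration and invasion of epithelial cells. It was the one Fos gene with its highest value on day 10, at 9.15, and it had 8.96 on both later days, a difference of −0.19. Fosl2, which encodes Fra-2, an AP-1 protein known for its role in epidermal differentiation and skin fibrosis, had 11.34, 11.35 and 11.34 on days 10, 12 and 14.

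Of the Jun genes, Jun alone differed between days by more than the spread between probe sets. Jun, which pairs with Fos and with itself and is phosphorylated by JNK, stood at 11.32 on day 10, 11.71 on day 12 and 11.67 on day 14. Day 12 was 1.31-fold above day 10, and day 14 lay 0.04 below day 12. Junb, whose loss from the epidermis leads to skin inflammation in mice, had 8.93, 8.97 and 8.93 on days 10, 12 and 14. Jund, the Jun gene that is expressed most steadily in many tissues, had 10.89 on all 3 arrays.

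All 3 Egr genes were higher on day 12 and on day 14 than on day 10. Egr1, which responds to serum and injury in most cell types, had 9.19 on day 10, 9.96 on day 12 and 9.41 on day 14. It was 1.70-fold higher on day 12 than on day 10, and day 14 lay 1.46-fold below day 12. Egr2, also known as Krox20 and needed for Schwann cell myelination in mice, had 9.07 on day 10, 10.17 on day 12 and 10.02 on day 14. It was 2.15-fold higher on day 12 and 1.93-fold higher on day 14 than on day 10, and it had the largest difference of the 10 genes in each of these comparisons. Egr3, which acts beside Egr2 in lymphocytes, had 9.40, 9.77 and 9.94 on days 10, 12 and 14. Its values were ordered by day like those of Fosb, with day 14 1.45-fold above day 10.

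**Figure D1:**
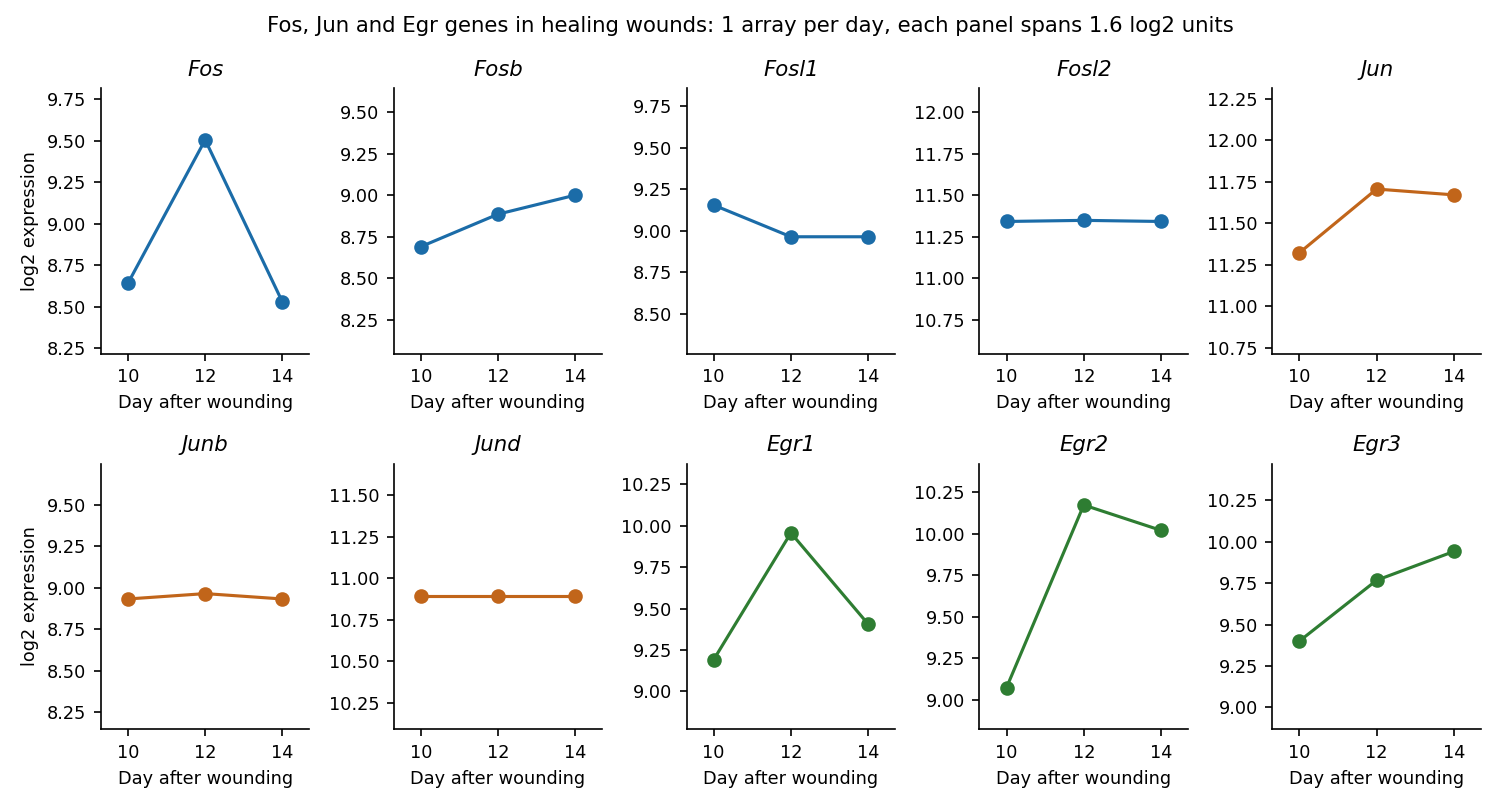
Log2 expression (y axis) of the 10 genes on days 10, 12 and 14 (x axis), 1 point per array, with blue for the Fos family, orange for the Jun family and green for the Egr family. Every panel spans the same number of log2 units around its own middle, so slopes can be compared and heights cannot; Fos and Egr1 are highest on day 12, Egr2 and Jun stay near their day 12 values, and Jund has 10.89 throughout.

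Over the first interval, day 12 against day 10, the question was which of these genes differed between the earlier pools. Of the 10 genes, 8 were higher on day 12, against 33.2% of the 9969 genes. Fosl1 was lower, against 45.7% of all genes, and Jund was equal, against 21.1%, although the signs of Fosl2 and Jund changed with the scaling. The share of all genes that were higher depends on the scaling as well: 7 members were higher against 30.7% of all genes after centring each array, 9 against 44.1% under quantile normalization and 9 against 56.3% under cyclic loess. The median difference of the 10 was 0.28, beside a median of 0.00 over all genes compared. Fos, Egr1 and Egr2 were at least 1.5-fold higher, which makes 3 of 10, against 4.17% of all genes, and none was lower by that factor, against 1.64%. Ranked from the highest difference downward among the 9969 genes, Egr2 was at place 118, Fos at 204 and Egr1 at 257. Jun and Egr3 followed at places 726 and 764, and Fosb at 1391. Differences beyond the 95th percentile of the probe set spread were found for 7 of the 10 genes, against 36.5% of all genes. The other 3 were Fosl2, Junb and Jund. Fosb and Fosl1, with 0.20 and −0.19, exceeded the percentile of 0.17 only narrowly.

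The comparison of day 14 with day 12 covered the second interval, over which Fos and Egr1 were lower and Egr3 and Fosb were higher. Of the 10 genes, 6 were lower, against 50.3% of all genes, 2 were higher, against 24.9%, and 2 were equal, against 24.8%. With the other array scalings 5 to 7 members were higher, against 56.1% to 61.5% of all genes, and the near-zero differences of Fosl1, Fosl2 and Jund were positive under each of them. The median difference was −0.02, beside 0.00 over all genes. Fos was the 1 member that was at least 1.5-fold lower, against 1.19% of all genes, at place 39 from the lowest difference among the 9969, and none was higher by that factor, against 0.321%. Egr1 was at place 140 from the lowest, with a difference of −0.55 that did not reach 1.5-fold. Egr2 differed by −0.15, Egr3 by 0.17 and Fosb by 0.11. Differences beyond the 95th percentile of the probe set spread were found for 4 of the 10 genes (Fos, Egr1, Egr2 and Egr3), against 24.8% of all genes. Egr2 and Egr3 exceeded that percentile, 0.14, only narrowly. Egr2 lay within that spread under each of the other array scalings, with −0.11 to −0.13, and Fosb lay beyond it after centring and under quantile normalization, with 0.14 and 0.16.

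The comparison of day 14 with day 10 spanned both intervals. It shares its arrays with the other comparisons and is no separate evidence. Of the 10 genes, 5 were higher (Fosb, Jun and the Egr genes), against 29.6% of all genes, 2 were lower (Fos and Fosl1), against 53.8%, and 3 were equal, against 16.6%. The equal ones, Fosl2, Junb and Jund, were higher by at most 0.05 under the other array scalings, which makes 8 members higher against 48.6% to 53.1% of all genes. Egr2 was the 1 gene at least 1.5-fold higher, against 5.27% of all genes, and none was lower by that factor, against 5.19%. Differences beyond the 95th percentile of the probe set spread were found for 5 genes, against 40.0% of all genes. Egr1, with 0.21, exceeded that percentile, 0.20, only narrowly. Ranked from the highest difference downward, Egr2 was at place 247, Egr3 at 583, Jun at 931, Fosb at 1017 and Egr1 at 1323. Egr3 thus stood ahead of Egr1 on day 14 against day 10, and behind it on day 12 against day 10. The median difference was 0.11, beside −0.02 over all genes. Of the difference between day 12 and day 10, day 14 kept 90.9% for Jun, 86.1% for Egr2 and 28.1% for Egr1, and Fos was below its day 10 value. Day 12 was above both other days for 6 of the 10 genes, against 14.5% of all genes, although for Fosl2, Jun and Junb the distance to one of the other days was 0.04 or less. Neither share was computed under the other array scalings. Fos was at least 1.5-fold above both other days, as were 39 of the 9969 genes (0.391%).

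**Figure D2:**
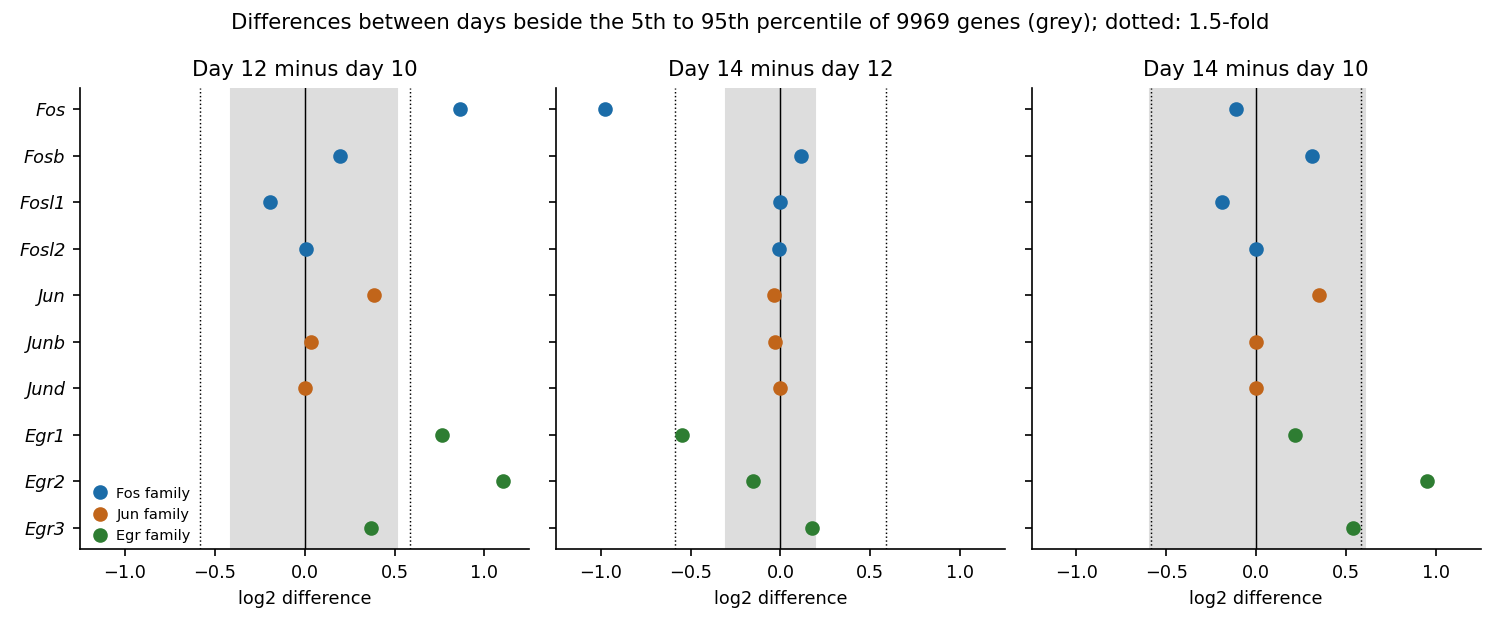
Log2 differences (x axis) of the 10 genes (rows) for the 3 pairs of days, later day minus earlier day, 1 point per gene. Grey marks the range from the 5th to the 95th percentile of 9969 genes and dotted lines mark 1.5-fold; Fos, Egr1 and Egr2 lie above the grey range on day 12 against day 10, and Fos and Egr1 lie below it on day 14 against day 12.

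**Figure D3:**
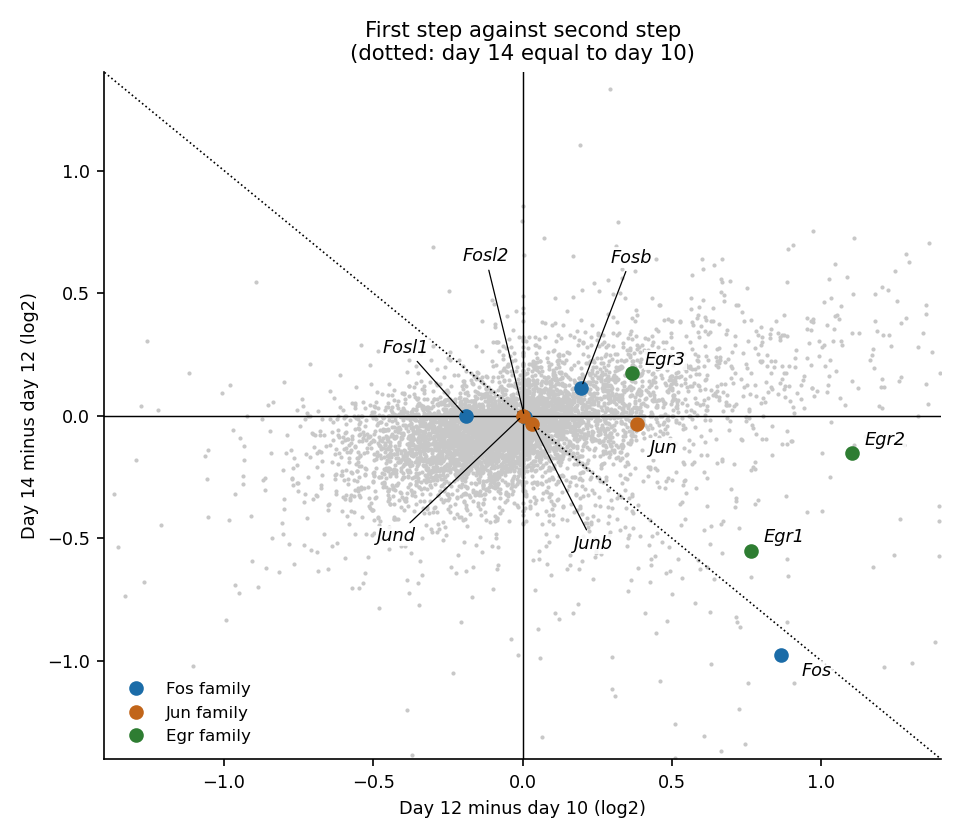
Difference of day 14 against day 12 (y axis) plotted on the difference of day 12 against day 10 (x axis), both in log2 units, for 9969 genes (grey points, 76 of them outside the axes) and the 10 members (coloured by family). Fos lies near the dotted line on which day 14 equals day 10, Egr1 lies between that line and the horizontal axis, Egr2 and Jun lie to the right near the horizontal axis, and Egr3 and Fosb lie above it.

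The genes whose pair of differences was nearest to those of the 2 members with the widest range were looked up among 9727 genes. Likeness was the Euclidean distance in log2 units over both intervals, which rest on 3 arrays. Nearest to Egr2 were Serpinb11 at a distance of 0.04, Il1a at 0.08, Il1f8 at 0.10, Muc15 at 0.12 and Krt78 at 0.14. Il1a and Il1f8 encode cytokines of the interleukin 1 family and Krt78 encodes a keratin. Nearest to Fos were Clec4e at 0.12, AI504432 at 0.14, Sprr2f at 0.16, Bst1 at 0.18 and Ifi213 at 0.20. Ifi213 had 7.70, 8.42 and 7.58 on days 10, 12 and 14. It passed the level filter of 8.36 through its day 12 value alone, so its likeness to Fos supports nothing. Clec4e encodes a lectin receptor of myeloid cells and Sprr2f a small proline-rich protein of the cornified envelope.

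Of the other bZIP genes, whose proteins can pair with Fos or Jun or share their sites, 14 of 15 were measured and 9 passed the level filter. On day 12 against day 10, 2 of the 9 were higher, 4 lower and 3 equal, against 33.2%, 45.7% and 21.1% of all genes. Their median was 0.00. Atf3, itself an immediate early gene that pairs with Jun, had a course like that of Jun, with 9.75 on day 10, 10.27 on day 12 and 10.25 on day 14. Mafk and Atf7 had ranges of 0.28 each. No gene of this list reached 1.5-fold in any of the comparisons.

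Among the Nab co-repressors and the serum response factor group, Elk3 and Elk1 had the widest ranges and no other gene past the filter had a range above 0.18. Nab2, an Egr target whose product binds Egr1 and Egr2, had 10.52 on day 10, 10.37 on day 12 and 10.52 on day 14. Nab1 had 10.88, 11.03 and 11.00 on the same days, and Srf had 9.84 on all of them. Elk3, which encodes a serum response factor partner that can repress Fos, had 11.50, 11.09 and 10.76 on days 10, 12 and 14, and was 1.67-fold lower on day 14 than on day 10. Elk1 had a range of 0.31. Mrtfa, which encodes a serum response factor co-activator, had 10.11, 10.06 and 9.93 on these days. Of the 8 genes past the filter, 3 were higher and 4 lower on day 12 against day 10, against 33.2% and 45.7% of all genes. Their median was −0.02. Egr4, a further Egr gene, lay below the level filter, with at most 7.57.

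Upstream of these factors, 17 MAP kinase pathway genes passed the filter of 19 measured and 23 listed. On day 12 against day 10, 9 were higher, 5 lower and 3 equal, against 33.2%, 45.7% and 21.1% of all genes. Their median was 0.02. Mapk13, which encodes p38 delta, was 1.76-fold higher on day 12, with 10.35, 11.16 and 11.30 on days 10, 12 and 14. It was the 1 gene of the 17 past 1.5-fold in that comparison, against 5.81% of all genes. On day 14 against day 10, Mapk11, which encodes p38 beta, differed by −0.56 and Map3k1, a kinase upstream of JNK, by 0.48.

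The other immediate early genes past the level filter had narrower ranges over the 3 days than Egr1, Fos and Egr2, the widest being the 0.69 of Per1 against 0.76, 0.98 and 1.10. Of 36 listed and measured, 32 passed the filter. On day 12 against day 10, 18 were higher, 7 lower and 7 equal, against 33.2%, 45.7% and 21.1% of all genes. The median was 0.05, and 1 gene was at least 1.5-fold higher, against 4.17% of all genes. On day 14 against day 12, 6 were higher, 19 lower and 7 equal, against 24.9%, 50.3% and 24.8% of all genes. The median was −0.04. Day 12 was above both other days for 13 of the 32, against 14.5% of all genes. For Nr4a1, Btg1, Ppp1r15a, Trib1 and Gadd45a, named after their values were seen, the distance to one of the other days was 0.04 or less. Neither share was computed under the other array scalings. The gene past 1.5-fold on day 12 was Plk3, a stress-activated kinase gene, with 10.57, 11.19 and 11.23 on days 10, 12 and 14. Per1, a circadian clock gene that is also induced as an immediate early gene, was lowest on day 12, with 9.80, 9.50 and 10.19 on these days. Gadd45g, a growth arrest gene, differed by −0.68 on day 14 against day 10. Zfp36 and Ccn1 were chosen after their values were seen, as genes with a course like that of Fos. Zfp36, whose product destabilises messages of cytokines and immediate early genes, had 9.84, 10.13 and 9.72, and Ccn1, a matricellular gene, had 11.67, 11.93 and 11.37.

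Feedback inhibitors of MAP kinases were near 0 as a list, with a median of 0.05 for the first interval and −0.06 for the second over 12 of 16 genes past the filter. Dusp1, a phosphatase gene induced together with Fos and Egr1, had 11.47 on day 10, 12.01 on day 12 and 11.75 on day 14. This was 1.46-fold higher on day 12 than on day 10. Its highest value fell on the same day as those of Fos, Egr1 and Egr2. Spry4 and Dusp8 had ranges of 0.41 and 0.38. No gene of the list reached 1.5-fold in any of the comparisons.

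**Figure D4:**
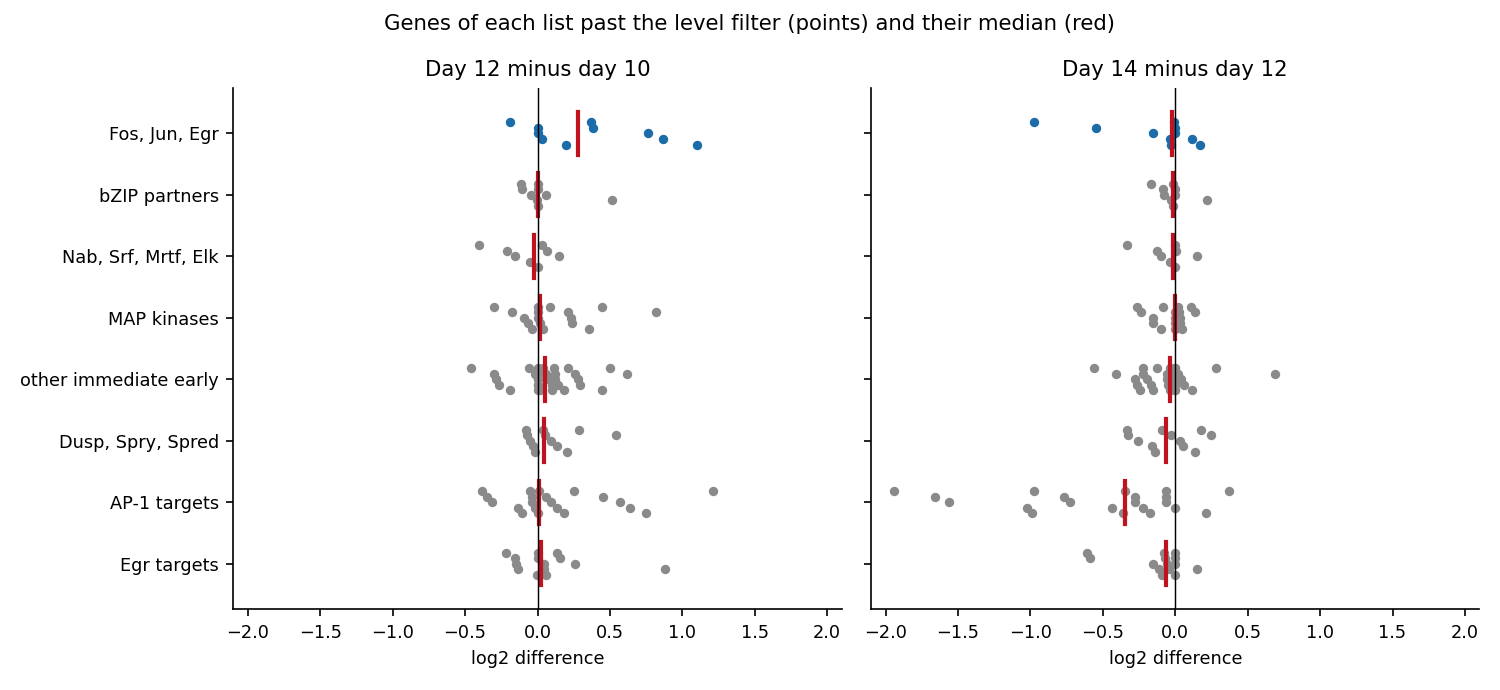
Log2 differences (x axis) of the genes past the level filter in each list (rows), day 12 minus day 10 on the left and day 14 minus day 12 on the right, with 1 point per gene and a red bar at the median. The Fos, Jun and Egr median is 0.28 on the left, and that of the AP-1 targets is −0.35 on the right.

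Known AP-1 targets were mostly lower on day 14 than on day 12. Of 24 listed, 23 were measured and 21 passed the filter. On day 12 against day 10, 11 were higher and 9 lower, against 33.2% and 45.7% of all genes, with a median of 0.01. In this comparison 3 were at least 1.5-fold higher, against 4.17% of all genes. These were the cytokine gene Il1b, the stromelysin gene Mmp3 and the cornified envelope gene Lor, of which Mmp3 and Lor were named after their values were seen. Mmp3 had 9.79, 11.004 and 9.98 on days 10, 12 and 14. On day 14 against day 12, 18 of the 21 were lower, against 50.3% of all genes, and 8 were lower by at least 1.5-fold, against 1.19%. Their median was −0.35, beside 0.00 as the median of all genes. Ptgs2, the cyclooxygenase 2 gene, stood at 10.32 on day 10, 10.78 on day 12 and 8.83 on day 14. Mmp10, a stromelysin gene, had 9.68, 9.81 and 8.15, and the cytokine gene Il1b had 10.44, 11.08 and 9.52. All 3 were highest on day 12 and lowest on day 14. The list did not share that course: 9 of the 21 were highest on day 12 and 9 were lower on each later day. Over all genes these shares were 14.5% and 30.6%. The list holds differentiation genes as well, and Ivl, which encodes involucrin of the cornified envelope, had 11.34, 11.91 and 12.28 on these days. Ivl was named after its values were seen.

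Known Egr targets had medians of 0.02 for the first interval and −0.06 for the second, over 14 genes past the filter of 15 measured and 19 listed. Tnf, the tumour necrosis factor gene, had 7.94 on day 10, 8.82 on day 12 and 8.23 on day 14. It passed the level filter through its day 12 value alone, so its difference of at least 1.5-fold on day 12 against day 10 supports nothing about the list, and no other gene of the list reached that factor in this comparison. Thbs1, which encodes the matrix protein thrombospondin 1, had 12.65, 12.81 and 12.20 on these days and was 1.52-fold lower on day 14 than on day 12. Of the 14, Thbs1 and Tnf were the 2 genes at least 1.5-fold lower in that comparison, against 1.19% of all genes. Because Tnf passed the filter through day 12 alone, its lower value on day 14 supports nothing about the list either. Tgfb1 had 11.24, 11.01 and 10.86. Nab2 belongs to this list too.

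Markers of several cell types moved over the same days, and their part in the differences of the Fos, Jun and Egr genes was not tested. The labelled tissue, epidermis with dermis, had its markers: all 8 basal keratinocyte, all 9 measured suprabasal and all 8 fibroblast markers passed the level filter. Macrophage markers had a mean over all 11 measured of 10.54 on day 10, 10.84 on day 12 and 10.40 on day 14, and all 10 past the filter were highest on day 12, like Fos and Egr1. The mean of 10 neutrophil markers was 9.02, 9.20 and 8.57 on these days, with Ly6g and Retnlg below the filter. Of the 8 neutrophil markers past the filter, 4 were highest on day 12 (Cxcr2, Mmp8, Trem1 and Clec4d), Mmp8 passing through that day alone. On day 12 against day 10, S100a8 and S100a9 differed by −0.26 and −0.30, Csf3r was equal and Il1r2 differed by 0.0015. Neutrophil genes were named after their values were seen. Of the macrophage markers, Cd163 was below the filter, and Cd14, Arg1 and Itgam had the widest ranges, with 1.37, 1.26 and 0.66. Mean levels ordered by day, like those of Fosb and Egr3, were found for suprabasal keratinocyte markers, with 10.88, 11.88 and 12.07, for basal keratinocyte markers, with 11.12, 11.40 and 11.53, and for mast cell markers, with 7.69, 8.29 and 8.65. Of the 8 basal markers, 5 were higher at each step, and Krt14 and Dst were highest on day 12. Krt15 had the widest range of them, 1.94, whereas their median difference on day 14 against day 10 was 0.08. Basal genes were named after their values were seen. Of the 7 mast cell markers, Fcer1a, Cma1 and Ms4a2 were below the filter. Sebaceous gland markers, of which Awat2 and Mc5r were below the filter, had means of 7.75, 9.26 and 8.96, highest on day 12 like Egr2. The list did not share that course. Of the 6 past the filter, 4 were highest on day 12, but Elovl3 and Scd3 among them passed through that day alone. Krt79 and Scd1 were higher at each step. Sebaceous genes were named after their values were seen. The labels state that hair follicles at the wound edge were avoided. Means were lower on each later day for myofibroblast markers, with 10.87, 9.98 and 9.62, and for endothelial markers, with 10.93, 10.46 and 10.34. Fibroblast markers stayed between 12.80 and 12.87, and T cell markers between 8.20 and 8.26, with Cd3d, Cd3g, Cd2 and Cd8a below the filter.

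**Figure D5:**
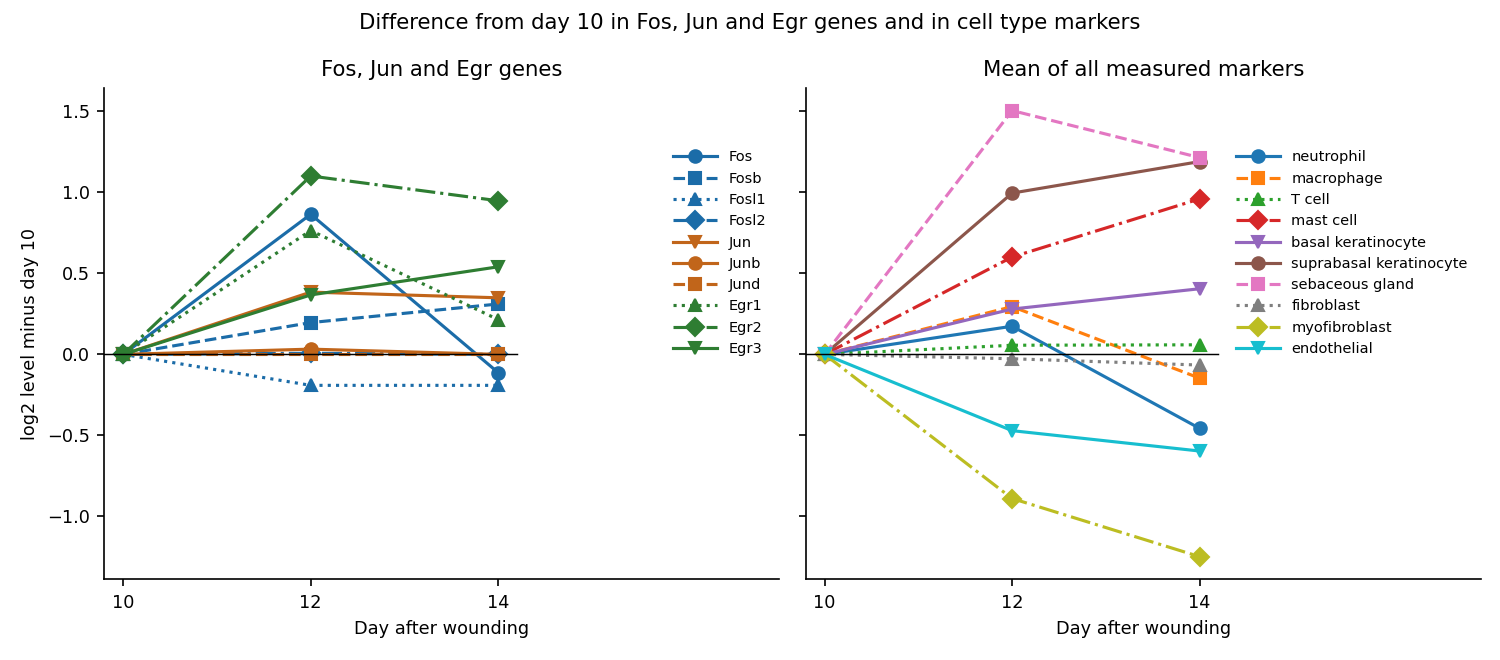
Difference from day 10 in log2 units (y axis) over the day after wounding (x axis), for the 10 Fos, Jun and Egr genes (left) and for the mean of all measured markers of 10 cell types (right), from 1 array per day. Macrophage and neutrophil means are highest on day 12 and lowest on day 14, although only 4 of the 8 neutrophil markers past the filter peak on day 12. Keratinocyte and mast cell means are ordered by day, and myofibroblast and endothelial means are lower on each later day.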

How the data were processed

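RNA pooled from wounds was hybridised to 3 arrays of one colour, 1 per day, from 250 ng of RNA amplified and labelled with biotin, per the labels' protocols. The deposited table holds 1 log2 value per probe set, made with RMA and Partek 6.6 as far as the submitters' processing notes name tools; which step each did is not given there. The log2 scale was read from the range, 4.37 to 14.1, and no scanner output was used, so background per probe set is unknown and the number of arrays limits the precision. Values were used as deposited. Symbols came from the platform's annotation (21789 probe sets with 1 symbol, 21698 of them matched by Entrez identifier to GRCm38.p6 with 0 symbols changed), and single-symbol probe sets were averaged per gene (Python 3.11.15, pandas 2.3.3). Differences are the later day minus the earlier day, called at 1.5-fold, beside the 9969 genes past the level filter. Counting was tested on simulated data. Members, lists and tests were chosen with earlier results of these data known. The rule named all members and the 3 genes of widest range past the filter in each list described. It also named, optionally, all genes of lists of 9 or fewer, and the 5 nearest genes of 2 members. Marker lists other than the macrophage and neutrophil lists are given as means in place of their 3 genes. Any further gene is marked as chosen later. Alternatives were other array scalings (limma 3.58.1), other probe set rules, filters and fold thresholds. Promoter sequences are RefSeq's.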

Additional observations from a re-analysis of the deposited data

How the results depend on the processing

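No scaling or probe set rule changed which of the 10 genes were at least 1.5-fold different. Each member has 1 probe set, so its value was the same under both probe set rules. Of 90 differences of single members under the 3 array scalings, 81 moved by less than the robust standard deviation between probe sets. The other 9 were all on day 14 against day 12 under quantile normalization, where 9 of the 10 members moved by more, and 0 differences past 1.5-fold changed sign. Differences near 0 did change sign with the scaling. The median difference on day 14 against day 12 was 0.020 under quantile normalization. On that comparison 5 members were higher after centring each array on its median, 5 under cyclic loess and 7 under quantile normalization, in place of 2, against 57.7%, 56.1% and 61.5% of all genes, in place of 24.9%. On day 14 against day 10 it was 8 members under each of the 3 scalings, in place of 5, because Fosl2, Junb and Jund no longer had equal values, against 48.6% of all genes after centring, 52.0% under cyclic loess and 53.1% under quantile normalization. With a threshold of 1.2-fold, 5 members differed over the first interval (day 12 against day 10), 2 over the second (day 14 against day 12) and 4 over the whole span (day 14 against day 10), against 23.6%, 9.61% and 31.9% of all genes. With 2-fold these were 1, 0 and 0, against 1.67%, 0.391% and 3.15%. The share of all genes at least 1.5-fold different in either direction was 5.81% for the first interval, 1.51% for the second and 10.5% for the whole span. With no level filter it was 3.29%, 0.983% and 6.09%, and for genes with a mean in the top 25% it was 1% for the second interval. No paired analysis was possible because each day had 1 array. Detection over background could not be assessed, and no difference has a replicate check.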

Other observations

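Ligands of the EGF receptor family, which act through MAP kinases on immediate early genes, did not share a course. Of 8 listed, 7 were measured and 5 passed the level filter. Of these 5, 1 was higher and 4 lower on day 12 against day 10, beside 33.2% and 45.7% of all genes. Epgn had 10.79 on day 10, 9.51 on day 12 and 9.55 on day 14, and Nrg1 had 10.11, 9.53 and 9.34 on these days. Ereg had 9.54, 10.34 and 10.42, and was 1.75-fold higher on day 12 than on day 10. Hbegf had 9.90, 9.55 and 9.49, and Tgfa had 9.44, 9.36 and 9.62.

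Heat shock genes, which respond to stress and tissue handling, had a median difference of −0.02 on day 12 against day 10. Of the 10, 3 were higher, 6 lower and 1 equal, against 33.2%, 45.7% and 21.1% of all genes. Hspa1a had 9.99 on day 10, 10.37 on day 12 and 10.41 on day 14, whereas Hspb1 had 12.46, 12.03 and 12.03 and Hsp90aa1 had 11.64, 11.45 and 11.23. The 13 housekeeping genes past the filter had medians of 0.00 in all 3 comparisons, and Pgk1 had the widest range of them, with 12.18, 12.38 and 12.12, followed by B2m and Polr2a with ranges of 0.12 each.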
